A study of Mus musculus with 4 samples.

Results

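The genes described here are 9 regulators and effectors of the epithelial-to-mesenchymal transition (EMT) in mouse: Snai1 and Snai2 of the Snail family, Zeb1 and Zeb2, Twist1 and Twist2, the cadherins Cdh1 and Cdh2, and Vim, which encodes vimentin. They were chosen by name, and every array probe whose transcript accession belongs to 1 of them was read, 11 probes among 55681. The array names 20660 genes in all. RNA came from EB5 mouse embryonic stem (ES) cells in which a Hoxb6 reporter makes red fluorescent protein (RFP) and which had grown for 6 days on OP9, a stromal feeder line from mouse bone marrow. The fraction of interest was positive for Flk-1 and for the Hoxb6 reporter (RFP-positive), and it was set against the fraction positive for Flk-1 and negative for the reporter (RFP-negative). Flk-1 is the VEGF receptor encoded by Kdr, a marker of early mesoderm. Each fraction was measured on 2 one-colour arrays. The EB5 background, the reporter, the feeder cells, the day and the Flk-1 gate are shared by both fractions. OP9 cells are mouse cells too, so the probes cannot tell their RNA from that of the ES-derived cells, and nothing in the labels says whether the 2 arrays of a fraction came from separate cultures. All p-values therefore measure the spread between these arrays, which may be technical, and the number of arrays limits the precision.

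EMT is the programme by which epithelial cells loosen their junctions and become motile, and gastrulating cells pass through it when they enter the primitive streak and become mesoderm. Snail and Zeb proteins are zinc finger repressors that bind E-box sequences with the letters CAGGTG, among them E-boxes in the promoter of Cdh1, the gene of the epithelial adhesion molecule E-cadherin. Twist proteins are basic helix-loop-helix factors that bind the more general E-box CANNTG together with E-proteins. Cells that leave an epithelium commonly exchange E-cadherin for N-cadherin, encoded by Cdh2, and fill their cytoplasm with vimentin filaments.

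The Snail protein is known, from human cells, to repress its own gene through an E-box, so the promoter of Snai1, the gene with the smallest unadjusted p below, is shown beside that of Twist1, which lay the other way. Both are the 250 bases before the gene's start, in RefSeq's sequence of GRCm38.p6 on the plus strand, with any CAGGTG or its reverse complement CACCTG in capitals.
Snai1, chr2:167537945-167538194: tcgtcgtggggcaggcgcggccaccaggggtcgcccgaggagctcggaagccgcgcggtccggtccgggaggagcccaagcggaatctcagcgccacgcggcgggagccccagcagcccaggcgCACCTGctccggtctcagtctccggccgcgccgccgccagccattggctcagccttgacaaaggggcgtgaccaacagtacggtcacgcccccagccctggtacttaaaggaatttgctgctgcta
Twist1, chr12:33957421-33957670: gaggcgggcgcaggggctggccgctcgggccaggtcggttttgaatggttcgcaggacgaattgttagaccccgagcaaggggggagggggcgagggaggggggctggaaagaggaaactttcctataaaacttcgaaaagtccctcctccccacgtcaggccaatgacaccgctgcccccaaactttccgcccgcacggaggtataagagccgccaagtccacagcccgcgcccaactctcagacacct
The Snai1 window held 1 match, from base 126 to base 121 before the start, and no other CANNTG. The Twist1 window held neither motif. Promoters were read for 5 of the 9 genes, and of these Snai1 was the 1 with a CAGGTG or CACCTG and also the 1 with any CANNTG. Those of the other 4 genes were not read, so whether they hold these motifs was not tested. Twist2, Vim and the 4 listed starts of Zeb2 had none in these 250 bases. Over all 32851 promoters in the table, 17.2% held CAGGTG or CACCTG and 66.2% held CANNTG, where the first motif is itself a case of the second. A match of letters is a description and not a bound site.

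All levels below are on the log2 scale with each array's 75th percentile of signal set to 0, and a difference is the RFP-positive level minus the RFP-negative level. Levels of different genes come from different probes and are not compared with each other. Between 55.2% and 59.3% of the spots of an array were marked by the scanner as well above background, and no spot was saturated. Kdr was well above background on all 4 arrays, at 4.41 and 4.36 in the RFP-positive and 4.18 and 4.33 in the RFP-negative fraction. The Hoxb6 probe was on none of them, which leaves the reporter sort without a check on the gene itself. Across 13431 genes tested, RFP-positive replicates 1 and 2 differed from each other with an SD of 0.75, against 0.55 for the RFP-negative replicates and 0.52 between RFP-positive replicate 1 and RFP-negative replicate 1. RFP-positive replicate 2 thus stood apart, and results are also given without it.

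Of the 9 genes, 8 were well above background on all 4 arrays and were tested. By limma's moderated test with Benjamini-Hochberg adjustment over 13431 genes, 0 of the 8 passed an adjusted p of 0.05, and neither did any other gene (0%). Their adjusted p ran from 0.745 to 0.969. At an unadjusted p under 0.05 there was 1 of them, Snai1, where 6.49% of all genes tested lay under that limit. With 2 arrays a fraction, an exact permutation test of a single gene cannot go below 0.333, so the values on each array carry the comparison. In 4 of the 8 genes the fractions' arrays did not overlap, against 40.3% of all genes tested and 39.4% of the genes well above background on all 4 arrays. Of these 4, 3 were higher in RFP-positive cells, as were 18.9% of the genes well above background throughout, and 1 was lower. Separation by itself therefore does not mark these genes out. None of the 8 had all pairs of arrays at least 2-fold apart, as 1.36% of all genes had. Their median difference was 0.31, beside -0.051 over all genes tested. In RNA from a whole fraction, fewer cells of a type and less RNA per cell cannot be told apart. Without RFP-positive replicate 2, 0 of the 8 genes had an unadjusted p under 0.05, and 5 did not overlap, where 66.3% of all genes tested did not.

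**Figure D1:**
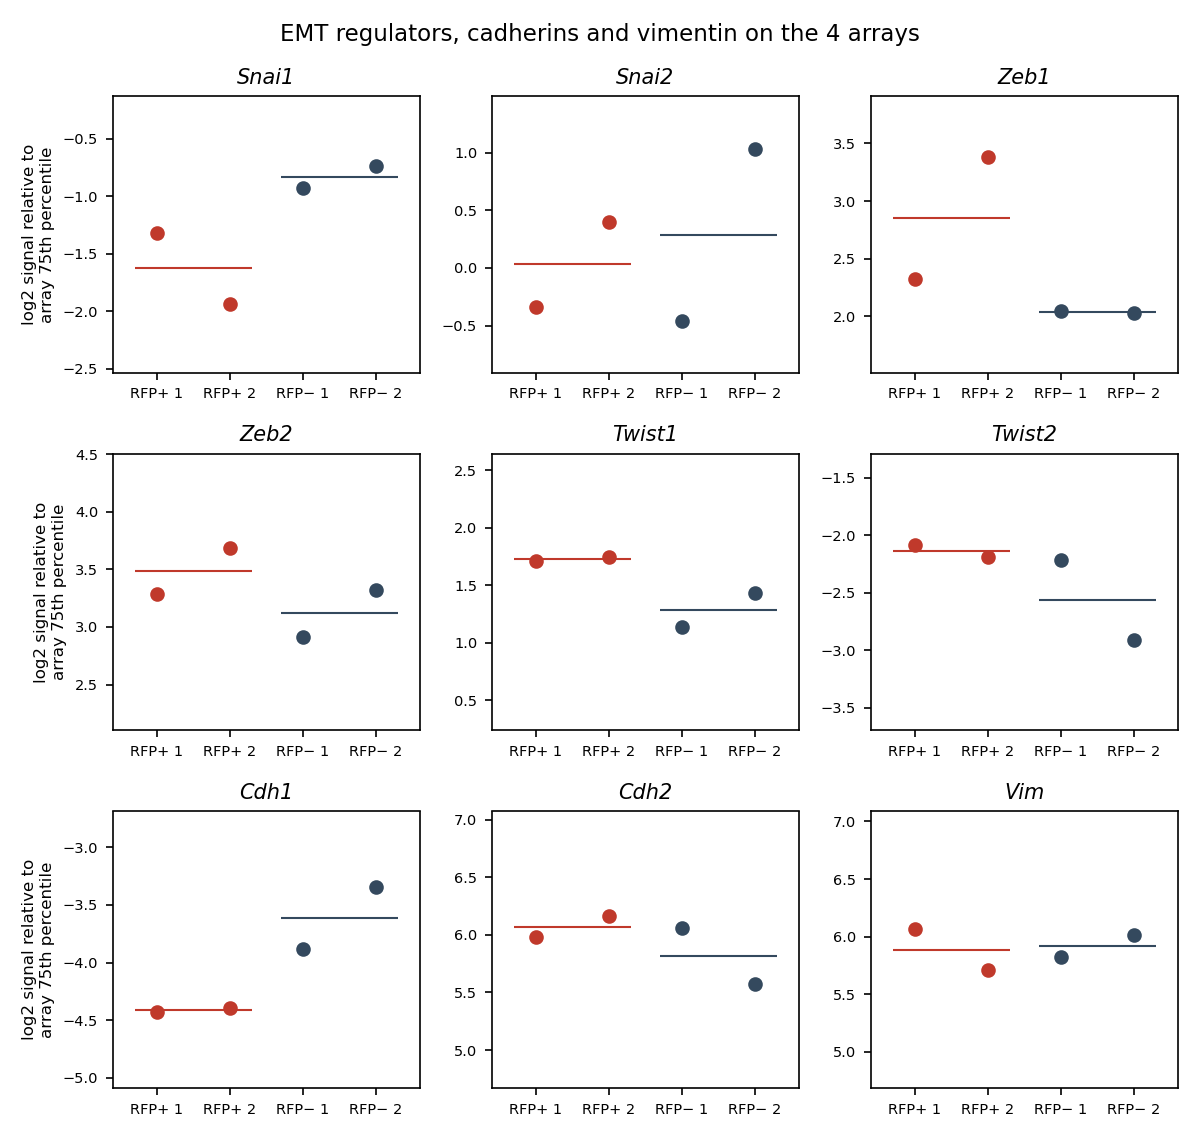
Log2 signal with the array's 75th percentile at 0 (vertical axis, spanning the same range in each panel) of the 9 genes on the 2 RFP-positive (red) and 2 RFP-negative (dark) arrays. Points are arrays and lines are the means of a fraction. Snai1 and Cdh1 lie lower on both RFP-positive arrays than on both RFP-negative arrays, Zeb1, Twist1 and Twist2 lie higher, and the arrays of Snai2, Zeb2, Cdh2 and Vim overlap.

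Snai1 (NM_011427), the Snail gene that mouse embryos need to complete EMT at gastrulation, was lower in RFP-positive cells. It read -1.32 and -1.93 on RFP-positive replicates 1 and 2, against -0.93 and -0.74 on RFP-negative replicates 1 and 2. Both RFP-positive arrays lay under both RFP-negative ones, with 0.39 between the nearest pair, while the 2 RFP-positive arrays were 0.61 apart. The means were -1.63 ± 0.43 in RFP-positive and -0.83 ± 0.14 in RFP-negative cells (SD, n = 2 each). This is a 1.73-fold difference, -0.79 on the log2 scale (SE 0.30, 95% interval -1.59 to -0.0011), with a limma adjusted p of 0.745. In size it was exceeded by 11.6% of the genes tested. Without RFP-positive replicate 2 the difference was -0.49 (unadjusted p 0.143, limma), and without RFP-positive replicate 1 it was -1.10.

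Snai2 (NM_011415) encodes Slug, the family member best known from neural crest. Its values did not follow the sort. RFP-positive replicates gave -0.34 and 0.40, and RFP-negative replicates gave -0.46 and 1.04. The 2 arrays of a fraction lay 0.73 apart in RFP-positive and 1.5 apart in RFP-negative cells, and both gaps were larger than the difference of -0.26 between the fractions (SE 0.58, limma adjusted p 0.903). The interval from -1.78 to 1.26 leaves a difference of more than 2-fold either way within the error. It was -0.62 without RFP-positive replicate 2, while the sign turned to 0.11 without RFP-positive replicate 1 and to 0.49 without RFP-negative replicate 2.

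Zeb1 (NM_011546) had the largest positive difference of the 8 genes tested, and 1 array made most of it. The values were 2.32 and 3.38 in RFP-positive cells, against 2.05 and 2.03 in RFP-negative cells. The RFP-negative arrays were nearly the same, RFP-positive replicate 1 lay 0.27 above them, and replicate 2 lay a further 1.06 higher. Means were 2.85 ± 0.75 in RFP-positive and 2.04 ± 0.01 in RFP-negative cells (SD, n = 2 each), a difference of 0.81 (SE 0.41, 95% interval -0.26 to 1.88, limma adjusted p 0.75). Without RFP-positive replicate 2 it was 0.28, and without RFP-positive replicate 1 it was 1.34 (unadjusted p 0.0061, limma adjusted p 0.136, beside 0.136 to 1.0 over all alternatives).

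Zeb2 (NM_015753), also known as Sip1, a partner of Smad proteins that mice need in neural crest, had 2 probes. The brighter one read 3.29 and 3.69 in RFP-positive cells, against 2.91 and 3.32 in RFP-negative cells. The 2 arrays of a fraction lay 0.40 apart in RFP-positive and 0.41 apart in RFP-negative cells, and the ranges overlapped by 0.031. The difference was 0.37 (SE 0.29, limma adjusted p 0.765), and 0.17 without RFP-positive replicate 2. The dimmer Zeb2 probe gave -2.68 and -1.53 in RFP-positive cells, against -2.05 and -2.33 in RFP-negative cells. Its RFP-positive arrays lay on both sides of the RFP-negative ones, and its difference was 0.09 (SE 0.44). Whether the probes detect the same transcripts was not tested.

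Both Twist genes were higher on both RFP-positive arrays. Twist1 (NM_011658), needed for cranial mesenchyme and neural tube closure in mice, stood at 1.71 and 1.74 in RFP-positive cells, against 1.13 and 1.44 in RFP-negative cells. The 2 RFP-positive arrays were 0.035 apart, and the nearest RFP-negative array lay 0.27 under them. The difference was 0.44 (1.36-fold, SE 0.24, 95% interval -0.19 to 1.07, limma adjusted p 0.75), and it stayed between 0.29 and 0.59 when any single array was left out, with 0.42 without RFP-positive replicate 2.

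Twist2 (NM_007855), also called Dermo1, marks dermal and other mesenchymal progenitors. Its levels were -2.08 and -2.19 in RFP-positive cells, against -2.22 and -2.91 in RFP-negative cells. Only 0.026 separated the nearest arrays of the fractions, while the RFP-negative arrays were 0.69 apart. The difference of 0.42 (SE 0.32, limma adjusted p 0.763) was 0.48 without RFP-positive replicate 2 and 0.08 without RFP-negative replicate 2. On RFP-negative replicate 2, Twist1 was above its level on RFP-negative replicate 1 and Twist2 under it.

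Cdh1 (NM_009864), the E-cadherin gene that the Snail and Zeb proteins repress, was near the limit of detection. Its single probe is printed 10 times on each array, which shows the technical spread directly. It was well above background at 1 of 10 spots on RFP-positive replicate 1 and at 5 of 10 on replicate 2, against 4 of the 9 spots kept on RFP-negative replicate 1 and 10 of 10 on replicate 2. More than 50% of spots passed on RFP-negative replicate 2 alone, so Cdh1 was not among the genes tested. The mean over spots was -4.43 and -4.40 on the RFP-positive arrays, against -3.88 and -3.34 on the RFP-negative arrays. Both RFP-positive means lay under both RFP-negative means. Single spots ran from -5.64 to -3.6 and from -5.06 to -3.67 in RFP-positive replicates 1 and 2, against -4.58 to -3.20 and -3.80 to -3.08 in RFP-negative replicates 1 and 2. Spots of the fractions overlapped, and the spread was smallest on RFP-negative replicate 2, with an SD of 0.21 beside 0.39 to 0.63 on the other arrays.

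Because the RFP-positive signal was not well above background, the size of the Cdh1 difference is uncertain. RFP-positive cells were set at the higher of the array's lowest signal well above background and the gene's own signal, which averaged -4.19. Against the RFP-negative mean of -3.61 this made Cdh1 1.49-fold higher in RFP-negative cells. The figure is not a strict minimum. RFP-negative replicate 1 did not pass the mark either, and another background correction, normexp, gave a log2 difference of -0.27. The means as measured were -4.41 in RFP-positive and -3.61 in RFP-negative cells, with 1 of the 2 RFP-negative arrays measuring the gene. Had 1 spot above background been enough for the test, a choice made after the spots were seen, the fit to these signals gave -0.80 with an unadjusted p of 0.038 and a limma adjusted p of 0.744. With no filter at all the adjusted p was 0.884. Without RFP-positive replicate 2 the means as measured differed by -0.82.

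**Figure D2:**
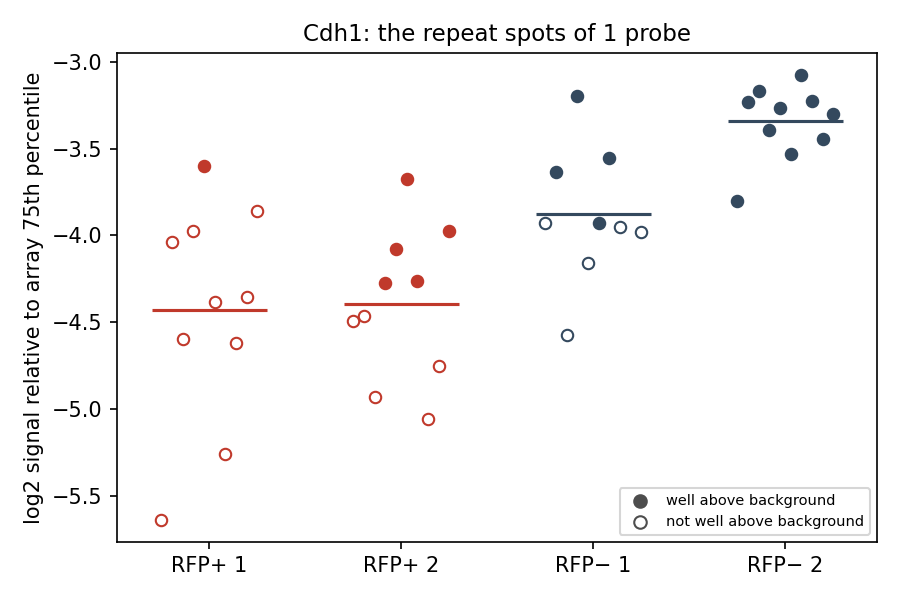
Log2 signal with the array's 75th percentile at 0 (vertical axis) of the repeat spots of the Cdh1 probe on each array, filled where the scanner marked the spot as well above background. Lines are means over spots. On RFP-negative replicate 2 all 10 spots are filled, and on RFP-positive replicate 1 there is 1.

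Cdh2 (NM_007664), the N-cadherin gene, was well above background on every array by both of its probes. The brighter probe gave 5.98 and 6.17 in RFP-positive cells, against 6.06 and 5.57 in RFP-negative cells. RFP-negative replicate 1 lay between the RFP-positive arrays, so the fractions overlapped. The difference was 0.26 (SE 0.28, 95% interval -0.47 to 0.98, limma adjusted p 0.807), and it was 0.16 without RFP-positive replicate 2 and 0.017 without RFP-negative replicate 2. The other probe read 4.69 and 4.57 in RFP-positive cells, against 4.70 and 4.21 in RFP-negative cells, and differed by 0.17 (SE 0.28).

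Vim (NM_011701), whose filaments are a hallmark of mesenchymal cells, was well above background on all 4 arrays and had the smallest difference of the 8 genes tested. Its levels were 6.06 and 5.71 in RFP-positive cells, against 5.83 and 6.01 in RFP-negative cells. The RFP-positive arrays enclosed the RFP-negative ones. The difference was -0.03 (SE 0.26, limma adjusted p 0.969), with an interval from -0.70 to 0.63, and 93.7% of the genes tested differed by more. The sign depended on the scaling of the arrays, and it was positive, at 0.14, without RFP-positive replicate 2.

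**Figure D3:**
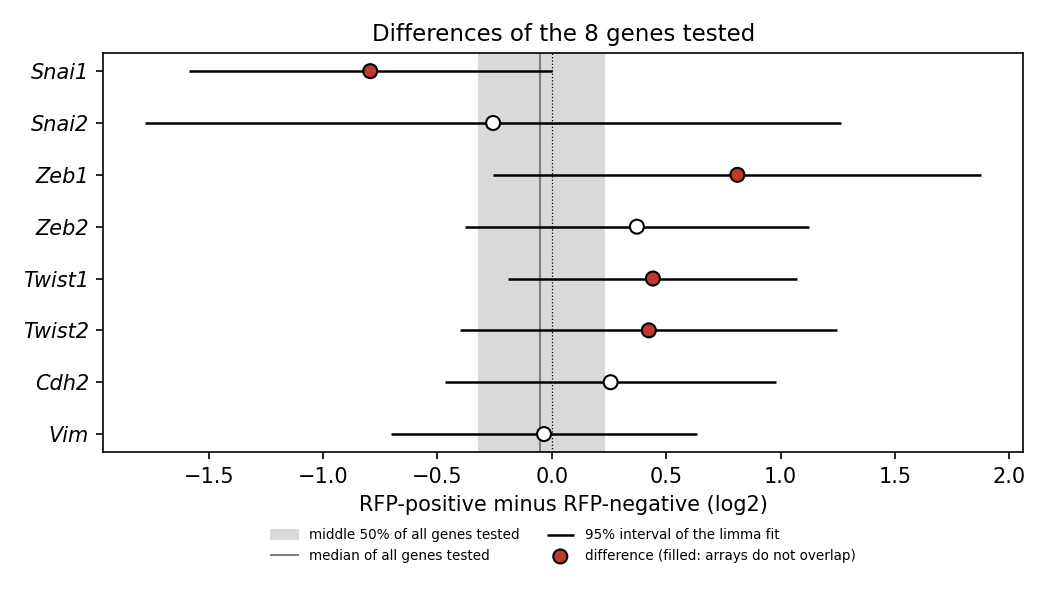
Difference between RFP-positive and RFP-negative cells on the log2 scale (horizontal axis) for the 8 genes tested, with the 95% interval of the limma fit, filled where the arrays of the fractions do not overlap. Every interval but that of Snai1 contains 0, and that of Snai1 ends at -0.0011. The grey band holds the middle 50% of all genes tested, from -0.32 to 0.23.

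Within the set, then, the Snail genes had negative differences and the Zeb and Twist genes positive ones. The sign was the same in all 15 alternative settings for Snai1, Cdh1, Zeb1, Zeb2, Twist1, Twist2 and Cdh2, but not for Snai2 and Vim. Settings that alter only the filter or the variance model cannot turn a sign, nor can the deposited value table. Leaving out 1 array cannot do so either for genes whose fractions do not overlap. A difference between 2 genes on the same array is not moved by a constant factor per array. These pairs were picked after their values were seen and are given without a test. Zeb1 minus Snai1 was 3.64 and 5.32 on the RFP-positive arrays, against 2.98 and 2.77 on the RFP-negative arrays, so that this gap was wider in RFP-positive cells by 1.61 on average. For Twist1 minus Snai1 it was 3.03 and 3.68 on the RFP-positive arrays, against 2.07 and 2.17 on the RFP-negative arrays, wider by 1.24. In both pairs of genes the RFP-positive arrays lay above both RFP-negative arrays. That follows from the single genes, as Zeb1 and Twist1 were higher and Snai1 lower on both RFP-positive arrays.

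Genes that act with the 9 or mark the states they separate were then read from 9 lists, which hold 183 genes, 164 of them tested and none of them among the 9. By limma, 0 listed genes passed an adjusted p of 0.05, and 0 to 5 genes of a list had an unadjusted p under 0.05. All counts below are of genes whose arrays did not overlap between the fractions, where the share over all genes tested was 18.8% higher and 21.6% lower in RFP-positive cells.

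Epithelial genes lay lower more often than higher. Of 27 tested genes of junctions and keratins, 13 were lower (48.1%) and 3 higher (11.1%), with a median difference of -0.48 (-0.40 without RFP-positive replicate 2), and 5 had an unadjusted p under 0.05. A keratin gene among the lower ones entered the test through the RFP-negative arrays only, as it was well above background on neither RFP-positive array. Among genes of the list well above background on all 4 arrays, 14 did not overlap, with a median of -0.50. Epcam, an epithelial adhesion molecule, read -0.85 and -1.70 in RFP-positive cells, against -0.15 and 0.70 in RFP-negative cells, so that the fractions differed by -1.55 (SE 0.45, adjusted p 0.727 by limma). The tight junction gene Cldn7 differed by -1.02 (-0.66 without RFP-negative replicate 2) and Jup, the gene of the junction protein plakoglobin, by -1.02 as well (-0.58 without RFP-positive replicate 2). The gene of smallest p in this list went the other way. Dsp, which encodes the desmosome linker desmoplakin, was at 1.92 and 2.01 in RFP-positive cells, against 0.86 and 1.14 in RFP-negative cells, which makes 0.97 between the means (SE 0.24, adjusted p 0.673 by limma).

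Among 8 tested regulators that oppose EMT, 4 were lower and 0 higher, with a median of -0.53 (-0.16 without RFP-positive replicate 2) and 2 genes at an unadjusted p under 0.05. Elf3, an Ets factor of epithelia and 1 of the 4 lower, was well above background on neither RFP-positive array. It entered the test through the RFP-negative arrays only. Among genes of this list well above background on all 4 arrays, 3 did not overlap. The Elf3 means were -4.04 in RFP-positive and -2.65 in RFP-negative cells, 2.62-fold apart as measured (limma adjusted p 0.660). Without RFP-positive replicate 2 the Elf3 difference was -1.06. Esrp1, a splicing regulator of epithelial isoforms, was at -1.89 and -2.57 in RFP-positive cells, against -1.53 and -0.48 in RFP-negative cells, and the difference was -0.70 without RFP-negative replicate 2. Klf5, a Krüppel-like factor of epithelial progenitors, differed by -0.67 (-0.28 without RFP-positive replicate 2). Grhl2, an activator of Cdh1, had a difference of 1.16 with overlapping arrays, at -2.46 and -1.64 in RFP-positive cells, against -4.07 and -2.36 in RFP-negative cells.

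Mesenchymal and matrix genes were mixed, 4 higher and 10 lower among 28 tested, with a median of -0.11. Mmp9, a matrix protease, differed by 1.16 (SE 0.31, limma adjusted p 0.704), with -1.34 and -1.91 in RFP-positive cells, against -2.60 and -2.98 in RFP-negative cells. Tnc, the tenascin C gene, differed by 0.74. The collagen gene Col6a2 had a difference of -1.13 and S100a4, also known as fibroblast-specific protein, one of -1.21.

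Of 20 tested EMT transcription factors outside the set, 3 were higher (15%) and 2 lower (10%), with a median of -0.018. Id3, which encodes an inhibitor that takes E-proteins away from Twist and related factors, differed by -1.11 (SE 0.55, limma adjusted p 0.745), with 3.45 and 1.97 in RFP-positive cells, against 4.04 and 3.60 in RFP-negative cells, and by -0.37 without RFP-positive replicate 2. The forkhead genes Foxc2 and Foxq1 differed by 0.47 (0.20 without RFP-positive replicate 2) and 0.57, the second with overlapping arrays. Of the corepressors and turnover factors of Snail and Zeb, 5 were higher and 3 lower of 25, with a median of -0.025. Pak1, a kinase that phosphorylates human SNAI1, was at -1.84 and -1.82 in RFP-positive cells, against -1.17 and -1.17 in RFP-negative cells (unadjusted p 0.032, limma adjusted p 0.745). Rcor1, the gene of the corepressor CoREST, was at 0.43 and 1.28 in RFP-positive cells, against 0.10 and 0.12 in RFP-negative cells. Its difference was 0.74, and 0.32 without RFP-positive replicate 2. Fbxw7, part of a ubiquitin ligase, was at 0.47 and Ajuba, a LIM protein that binds Snail, at 0.44 (0.22 without RFP-negative replicate 2), both as differences.

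Cadherins beyond the pair and their catenins gave 3 higher and 3 lower of 17, with a median of 0.03. Cdh5, the VE-cadherin gene of endothelium, was at 3.76 and 4.70 in RFP-positive cells, against 3.76 and 3.65 in RFP-negative cells. The difference was 0.53, and 0.06 without RFP-positive replicate 2. Jup was in this list too. Cdh13, the gene of T-cadherin, differed by -0.78 (-0.34 without RFP-positive replicate 2), and Cdh20 read -1.60 and -3.22 in RFP-positive cells, against -1.36 and -1.45 in RFP-negative cells, a difference of -0.19 without RFP-positive replicate 2. Of the list, Cdh15, Cdh17, Ctnna3 and Ctnnd2 were well above background on no array. Intermediate filament genes and vimentin partners gave 2 higher and 3 lower of 13, with a median of -0.33 (-0.56 without RFP-negative replicate 1 and -0.15 without RFP-negative replicate 2), and led with the nuclear lamin gene Lmnb1 at -0.57, the keratin gene Krt18 at -0.68, the lamin gene Lmna at -0.66 with overlapping arrays, and the synemin gene Synm at -0.48. Without RFP-positive replicate 2, Krt18 was at -0.45, Lmna at -0.24 and Synm at -0.17.

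Of 16 tested genes of EMT at the primitive streak, 3 were higher and 2 lower, with a median of -0.09. Tbx6, a T-box gene of paraxial mesoderm, was the 1 gene of the 9 lists with every pair of arrays at least 2-fold apart. It read -3.06 and -3.05 in RFP-positive cells, against -1.74 and -1.87 in RFP-negative cells, which differ by -1.24 (SE 0.23, adjusted p 0.581 by limma). The streak ligand gene Nodal differed by 0.77, and Mesp1, an early regulator of cardiac mesoderm, by -0.74 (-0.31 without RFP-positive replicate 2). Eomes, a T-box gene that acts upstream of Mesp1, differed by 0.89 and was at 2.80 and 2.58 in RFP-positive cells, against 2.51 and 1.09 in RFP-negative cells, and its difference was 0.18 without RFP-negative replicate 2. In the list of TGF-beta ligands, receptors and Smads, genes were higher more often than lower, 6 (40%) against 1 (6.67%) of 15. The median was 0.20 (0.054 without RFP-positive replicate 2). The lower gene encodes a TGF-beta ligand and differed by -1.02, and the other ligand genes had overlapping arrays. Skil, a TGF-beta-induced feedback repressor, differed by 0.73 (SE 0.26), Ltbp1, which holds latent TGF-beta in the matrix, by 0.89 (SE 0.33), and the receptor gene Tgfbr1 by 0.65 (SE 0.26) and the effector gene Smad3 by 0.87 (SE 0.36), with a limma adjusted p of 0.745 for each. Ltbp1 was at 0.55 without RFP-positive replicate 2, and Smad3 at 0.46 without RFP-negative replicate 2.

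**Figure D4:**
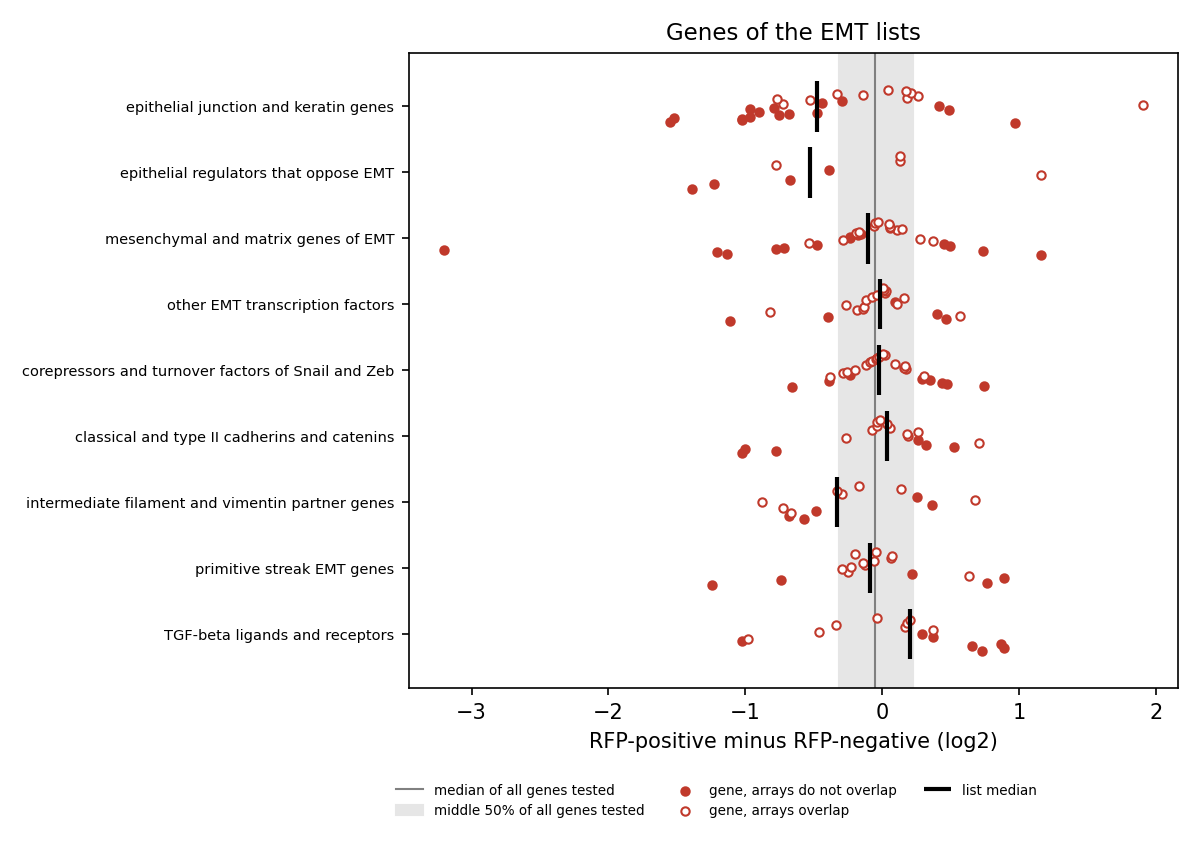
Difference between RFP-positive and RFP-negative cells on the log2 scale (horizontal axis) for each tested gene of the 9 EMT lists, filled where the arrays do not overlap. Black bars are list medians, from -0.53 for the regulators that oppose EMT to 0.20 for the TGF-beta genes, and the grey line and band are the median and the middle 50% of all genes tested.

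Markers of 8 other kinds of cell were read in the same way, since several of these cells also express the genes above. By limma, 0 of their 74 tested genes passed an adjusted p of 0.05, and 0 to 9 genes of a list had an unadjusted p under 0.05. Adipocyte genes were lower in 9 and higher in 0 of 10 tested, with a median of -1.60 (-1.39 without RFP-positive replicate 2), and their summed signal, in units of the array's 75th percentile, was 21.5 and 16.1 in RFP-positive cells, against 50.8 and 62.1 in RFP-negative cells. Of these genes 6 had every pair of arrays at least 2-fold apart: the lipid droplet gene Cidec (-2.54), the adipsin gene Cfd (-1.81), the master regulator Pparg (-1.41), the fatty acid carrier Fabp4 (-1.58), the perilipin gene Plin4 (-1.63) and the adiponectin gene Adipoq (-1.63), given as log2 differences. Genes of OP9 stroma and fibroblasts, cells that commonly express Vim, Twist1, Snai2 and Zeb genes, were lower in 7 and higher in 1 of 12, with sums of 71.6 and 67.3 in RFP-positive cells, against 82.7 and 125.0 in RFP-negative cells. The brightest gene made up 36.52% to 54.01% of each stromal sum. Without it the sums of the fractions overlapped. That of RFP-positive replicate 2, at 42.70, lay above that of RFP-negative replicate 1, at 41.51, and RFP-negative replicate 2 was highest at 57.51. The adhesion gene Vcam1 differed by -1.5, the collagen gene Col1a1 by -0.85, Thy1 by -0.89 and the protease inhibitor gene Timp1 by -1.09, with Vcam1 at -0.97 without RFP-positive replicate 2. The 1 higher marker of this list differed by 0.79. The median of this list was -0.71, and -0.33 without RFP-negative replicate 2. Their markers Dcn, Postn and Mfap5 were well above background on no array. Mural and smooth muscle genes were lower in 5 and higher in 0 of 8, with sums of 25.9 and 24.3 in RFP-positive cells, against 32 and 49.0 in RFP-negative cells. The contractile genes Cnn1, Myl9, Actg2 and Acta2 differed by -0.62, -0.79, -0.84 and -0.99 (the last 3 by -0.49, -0.47 and -0.45 without RFP-negative replicate 2), and Cspg4 was well above background on no array.

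Endoderm, an epithelium that expresses Cdh1 and Epcam, had 4 markers lower and 0 higher of 9, which were Rbp4 (-2.01, with every pair of arrays at least 2-fold apart), Spink1 (-1.97), Epcam and Cldn6 (-1.52). Without RFP-negative replicate 2, Spink1 was at -1.23 and Cldn6 at -0.77. Epcam and Cldn6 were also counted among the lower junction and keratin genes above. The remaining tested endoderm markers had overlapping arrays, some of them with positive differences, and the median of the list was -0.22. The summed endoderm signal was 16.1 and 16.9 in RFP-positive cells, against 18.1 and 37.4 in RFP-negative cells, highest on RFP-negative replicate 2, the array on which Cdh1 was well above background. The adipocyte, stromal and mural sums were highest on that array too. Hnf4a, Afp and Apoa1 passed that mark nowhere. ES cells express Cdh1 too. Of 8 tested ES cell genes 2 were lower and 0 higher, with a median of -0.39 (-0.63 without RFP-positive replicate 1 and -0.13 without RFP-positive replicate 2). The pluripotency gene Dppa4 differed by -0.49. Pou5f1 read 0.24 and -1.58 in RFP-positive cells, against 0.47 and 0.29 in RFP-negative cells, a difference of -1.05, and of -0.14 without RFP-positive replicate 2. The genes Sox2 and Nanog differed by -0.48 and -0.24 with overlapping arrays, and Zfp42 was well above background on no array. Sums were 508 and 411 in RFP-positive cells, against 591 and 491 in RFP-negative cells, but the Nanog probe made up 98.2% to 98.5% of each. Sums without it were 8.21 and 7.14 in RFP-positive cells, against 10.6 and 7.46 in RFP-negative cells.

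Endothelial genes were higher in 8 and lower in 0 of 12 (66.7% against 18.8% of all genes tested), with a median of 0.38 (0.16 without RFP-positive replicate 2), and sums of 72.9 and 94.8 in RFP-positive cells, against 61.9 and 63.5 in RFP-negative cells. Flt1, a VEGF receptor gene, differed by 0.84, the Sox factor gene Sox7 by 0.83, the von Willebrand factor gene Vwf by 0.56 and the tight junction gene Cldn5 by 0.60. Without RFP-positive replicate 2, Sox7 was at 0.50 and Cldn5 at 0.25. Blood genes were higher in 5 and lower in 1 of 8, with sums of 17.2 and 15.0 in RFP-positive cells, against 11.1 and 11.9 in RFP-negative cells. The brightest gene made up 67.8% to 77.9% of each blood sum. Without it the sums were 5.53 and 3.64 in RFP-positive cells, against 2.71 and 2.62 in RFP-negative cells. Runx1, the factor that starts definitive blood, was at -1.58 and -1.04 in RFP-positive cells, against -2.65 and -3.05 in RFP-negative cells, with every pair of arrays at least 2-fold apart. The blood factor genes Gata1 and Myb differed by 1.44 and 1.29 (0.85 and 0.83 without RFP-positive replicate 2), and Spi1 by -1.11 (-0.54 without RFP-negative replicate 1), while Hba-x was well above background on no array. Neural and neural crest genes, from cells that express Snai2, Zeb2 and Cdh2, were higher in 1 and lower in 2 of 8, with Pax6 and Foxd3 at background throughout. Their sums were 26.3 and 28.8 in RFP-positive cells, against 29.6 and 35.2 in RFP-negative cells, but Tubb3 made up 66.5% to 77.1% of each. Sums without Tubb3 were 8.80 and 9.46 in RFP-positive cells, against 8.53 and 8.05 in RFP-negative cells. Pax3 and Tubb3 differed by -0.42 and -0.38, Nes by 0.26, and Sox1 by -0.55 with overlapping arrays. The median of this list was -0.27, and 0.036 without RFP-positive replicate 2. The part of these cell types in the differences of the 9 genes was not tested.

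**Figure D5:**
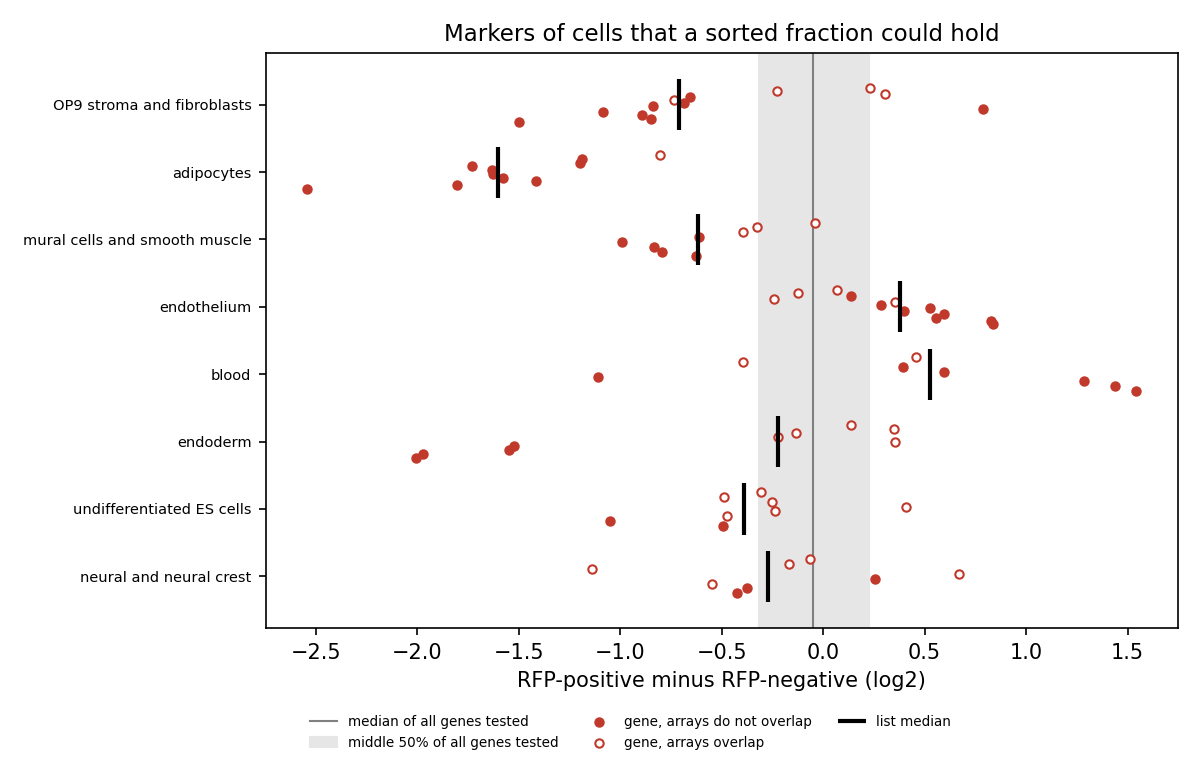
Difference between RFP-positive and RFP-negative cells on the log2 scale (horizontal axis) for each tested marker of 8 cell types, filled where the arrays do not overlap, with list medians as black bars. Adipocyte markers have the lowest median, -1.60, and blood markers the highest, 0.53.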

How the data were processed

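Total RNA of 4 samples was measured on one-colour (Cy3) Agilent arrays. Per the file headers, the deposited intensity values are the processed signals of Agilent's Feature Extraction software, version 10.10.1.1. The deposited value table holds the same intensity values times 1 constant per array. Of 59305 non-control spots per array, 115 to 153 outlier spots were left out. From the rest, log2 of the signal minus that of the array's 75th percentile was taken, and spots of a probe were averaged. The scanner's marks for signal well above background, as deposited, were applied per probe when over 50% of its spots had them, a rule set after the repeat spots were seen.

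Probes were named through RefSeq accessions of GRCm38.p6 (27235 of 55681 probes had 1 symbol). A gene was its probe of highest mean, tested if well above background on both arrays of at least 1 fraction, and fitted with limma 3.58.1 in R 4.3.3 (2 residual and 2.77 prior degrees of freedom), two-sided, adjusted over 13431 genes. Named are the 9 genes, the 4 tested genes with the smallest p in each list, genes at least 2-fold apart between all pairs of arrays, and Kdr and Hoxb6; 1 gene that this rule names is not reported here. The genes and lists were chosen with earlier results of these data known. The array headers name build mm9, so no coordinates of probes or gene bodies are given. Those of the printed promoters are RefSeq's, on GRCm38.p6. The 4 arrays shared 1 slide and 1 scan. The fit was tested on simulated data. Alternatives were other scalings, background correction, filters, probe rules and variance models, a replicate block and each array left out. Sequence is printed for 2 of the 5 genes whose promoters were read. Python 3.11.15 and matplotlib 3.10.9 were used.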

Additional observations from a re-analysis of the deposited data

How the results depend on the processing

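In each of 15 alternative settings 0 of the 9 genes and 0 genes of the whole array passed an adjusted p of 0.05 by limma, and 0 to 2 of the 9 had an unadjusted p under 0.05. The sign of the Vim difference turned under quantile normalization (0.12), scaling to the array median (0.050), normexp background correction (0.027), without RFP-positive replicate 2 (0.14) and without RFP-negative replicate 2 (0.06). That of Snai2 turned without RFP-positive replicate 1 (0.11) and without RFP-negative replicate 2 (0.49). When 1 array was left out, Vim ranged from -0.21 to 0.14 and Snai2 from -1.0 to 0.49. The cause was not tested. Of 135 differences of the 9 genes over the settings, 127 kept their sign and side of the threshold or stayed within the replicate spread, 7 changed sign, and 1 moved, that of Cdh1 under normexp, to -0.27. Settings that alter only the filter or the variance model leave the size of these differences unchanged. Genes without overlap numbered 4 or 5 under the other settings, and 5 to 7 when 1 array was left out. The 7 came without RFP-positive replicate 1, when 81.3% of all genes tested did not overlap, since a single array is separated more easily. Over the whole array 872 genes had an unadjusted p under 0.05, beside 2752 without RFP-positive replicate 1 and 387 without RFP-negative replicate 2. The list medians kept their sign in all settings for 12 of 17 lists. It turned in at least 1 setting for cadherins and catenins, corepressors, other EMT factors, streak genes and, without RFP-positive replicate 2, neural genes. With the replicate number as a block, 0 of the 9 genes had an unadjusted p under 0.05 and 4 were without overlap. Deviations of same-numbered arrays from their group means had a correlation of 0.09 across genes, so the numbers were not taken to pair the samples. Signals near background leave the size of the Cdh1 difference dependent on the processing. The Elf3 difference rests on RFP-positive signals that were not well above background.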
